A study of Mus musculus with 2 samples.

Results

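Mir203 (ENSMUSG00000065574.1) is a microRNA hairpin gene whose locus gave reads on both DNA strands in mouse adrenal gland. It was 1 gene of the 2202 microRNA genes in the tables, found by matching its Ensembl identifier to GENCODE M21 on chromosome 12. It was chosen for the antisense counts measured in these same libraries. Its strand counts and levels are therefore given as a description, with no test. Small RNA was sequenced from adrenal glands of male mice of the strain B6CASTF1/J, a cross of C57BL/6J with CAST/EiJ, aged 25 days. There was 1 group, untreated as far as the labels say, with 2 biological replicates and no other group to set them against. The samples carry separate animal numbers in the labels under a single shared donor entry, so the spread between the libraries may be partly technical. Counts were not split by parental allele.

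A microRNA gene is transcribed into a longer RNA that folds back on itself. The hairpin is cut out, and both arms of its stem can yield a mature microRNA of the 5p or 3p side. The mature microRNA guides Argonaute proteins to messenger RNAs mainly through its seed, bases 2 to 8. In mouse skin, miR-203 is known for its high level in the differentiating layers of stratified epithelium, where it represses the stem cell factor p63. A hairpin locus read from the opposite strand gives a different transcript of reverse-complement sequence, which may fold into a hairpin of its own.

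The Mir203 hairpin lies at chr12:112130880-112130955 on the plus strand (mm10, the build of the deposited tables), 76 bases long. It is outside annotated genes on either strand in GENCODE M21. The end of Aspg, a protein-coding gene on the same strand, is 3321 bases upstream, and the start of Kif26a is 15253 bases downstream. RefSeq (GRCm38.p6, the same assembly) additionally lists a microRNA gene on the minus strand within it, Gm51289 or Mir203b, at chr12:112130887-112130946. GENCODE M21 as used for counting has no gene there. The arms of both hairpins are shown because they are what a short read from each strand could hold. Seeds are in capitals, and all are written from their own 5′ end, as RefSeq gives them.
mmu-miR-203b-5p: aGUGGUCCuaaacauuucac
mmu-miR-203-5p: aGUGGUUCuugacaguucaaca
mmu-miR-203b-3p: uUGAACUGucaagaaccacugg
mmu-miR-203-3p: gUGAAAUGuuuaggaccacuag

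The arms of the opposite strands are alike in the seed but distinct along their length. Counting from 1 at the 5′ end, the miR-203b-5p seed differs from that of miR-203-5p by U7C, and the miR-203b-3p seed differs from that of miR-203-3p by A6C. In each change the Mir203 base is given first. Over their whole length the 5p arms matched at 15 of 20 compared bases and the 3p arms at 16 of 22. None of the 4 seeds occurred in any other of the 1738 mature sequences of the RefSeq table. The miR-203b-5p arm is the exact reverse complement of miR-203-3p over 20 shared positions, and miR-203b-3p is that of miR-203-5p over 20. The complete hairpins, with their arms in capitals, show the shared stem from either side.
Gm51289 hairpin, minus strand: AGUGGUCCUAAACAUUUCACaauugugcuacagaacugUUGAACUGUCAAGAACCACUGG
Mir203 hairpin, plus strand: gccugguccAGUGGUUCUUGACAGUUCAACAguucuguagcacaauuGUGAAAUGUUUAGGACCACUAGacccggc

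**Figure D1:**
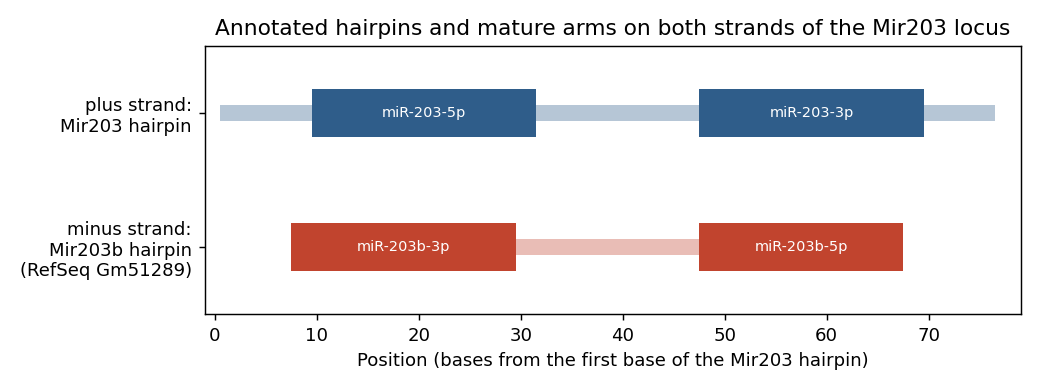
Map of the Mir203 locus, with the position in bases from the first base of the Mir203 hairpin along the horizontal axis. Thin bars are hairpins and thick bars mature arms, with Mir203 on the plus strand and the RefSeq hairpin Gm51289 (Mir203b) on the minus strand, which is read from right to left. Each minus-strand arm lies across an arm of Mir203 over 20 bases.

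The antisense strand of Mir203 was a minor but measurable part of the locus in both libraries. In replicate 1 the Mir203 interval had 385 antisense and 11071 sense counts. In replicate 2 it had 571 antisense and 5963 sense counts. The column that counts reads on either strand held 11456 in replicate 1 and 6534 in replicate 2. These are exactly the sums of the strands, so no read counted on a strand was missing from the either-strand column. A read left out of every column, such as one mapped to several places, would not show in this sum. The same equality held at all 2138 genes without an annotated opposite-strand gene in the tables. The antisense counts are those of the whole 76-base interval, and the tables do not say which arm the reads held.

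Antisense reads made up 3.36% of the counts on both strands in replicate 1 (3.04% to 3.71%, exact Clopper-Pearson interval at 95%). In replicate 2 they made up 8.74% (8.07% to 9.45%). The intervals of the libraries do not overlap. Like every interval here they reflect counting alone, and reads of this kind, with no molecular identifiers, may repeat a molecule. The mean share was 6.05% ± 3.80 (SD, n = 2). This share uses counts of the locus alone and so does not depend on the library total.

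Per 1000000 sense counts over all gene rows (CPM), the antisense strand reached 107 CPM in the first library, replicate 1, and 126 CPM in replicate 2. Its mean was 117 CPM ± 13.0 (SD, n = 2). The sense strand reached 3085 CPM in replicate 1, more than the 1313 CPM of replicate 2, with a mean of 2199 CPM ± 1253 (SD, n = 2). The sense strand was the higher strand in each library, and the antisense levels lay closer together than the sense levels. Library totals were 3588361 and 4541373 sense counts, and the 3 counts that a count of 0 allows were worth 0.836 and 0.661 CPM. Counts were not divided by hairpin length, since a read of this size class covers about 1 mature arm at any hairpin.

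By sense counts Mir203 ranked 45 of 2202 genes in replicate 1 and 60 in replicate 2. Had the antisense strand been a gene row of its own, it would have ranked 177 in replicate 1 and 172 in replicate 2. It would thus stand within the 352 genes called detected, those with at least 10 sense counts in both libraries. The antisense strand of Mir203 was read more often than most annotated microRNA genes, but most of these had no sense count in at least 1 library. Of the 2202 genes, 567 had at least 1 sense count in both.

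**Figure D2:**
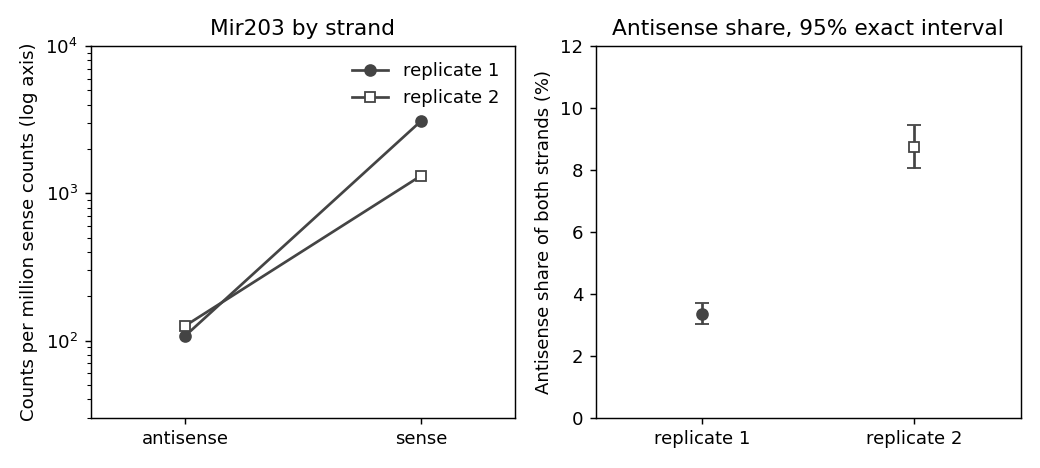
Left, Mir203 in CPM on a log axis, antisense and then sense, with a line joining the strands of each library. Right, the antisense share of both strands in percent, with exact 95% intervals. The antisense points sit at 107 and 126 CPM, close together, while the sense points sit at 3085 and 1313 CPM.

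Sense and antisense counts of Mir203 did not move together between the replicates. The sense level of replicate 1 was 2.35 times that of replicate 2 (2.28 to 2.43, exact interval). The antisense level of replicate 1 was 0.853 of that of replicate 2 (0.748 to 0.973). Replicate 1 was thus the higher library for the sense strand and the lower one for the antisense strand. This compares the libraries of 1 group and not conditions, and in bulk tissue fewer cells of a type and less RNA per cell cannot be told apart.

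A sense difference of over 2-fold was not rare. Of the 352 detected genes, 17.6% were over 2-fold apart in either direction and 7.39% were over 2-fold higher in replicate 1. Mir203 had the ratio of rank 20 from the top among these genes. The total matters here, since the liver microRNA Mir122 had 3201 counts in replicate 1 and 897162 in replicate 2. With Mir122 left out of the totals the sense ratio was 1.89, within 2-fold, and the antisense ratio was 0.685. Of the detected genes, 20.7% were then over 2-fold apart, 15 (4.26%) higher in replicate 1 and 58 higher in replicate 2, where with all counts 26 and 36 were. Under all 5 totals computed, the sense level was higher and the antisense level lower in replicate 1.

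**Figure D3:**
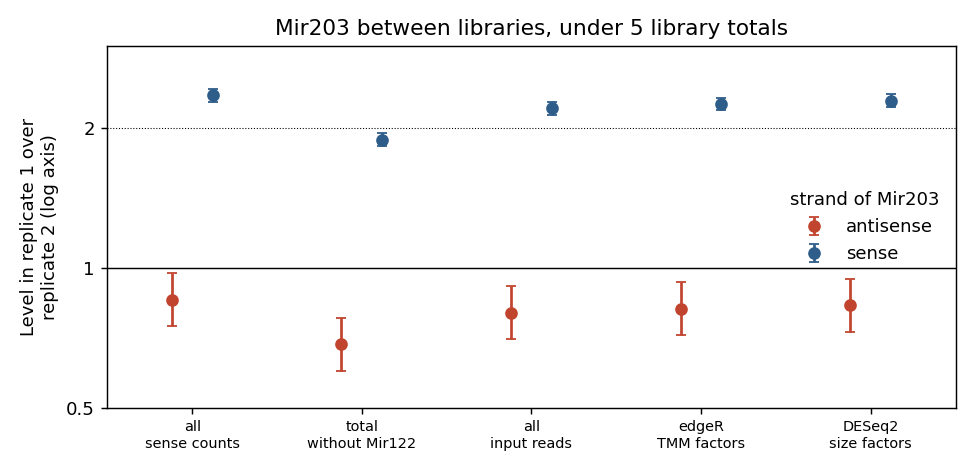
Level of Mir203 in replicate 1 over replicate 2 on a log axis, antisense left of sense, under 5 library totals, with exact 95% intervals. The solid line marks equal levels and the dotted line 2-fold. Sense ratios lie between 1.89 and 2.35 and antisense ratios between 0.685 and 0.853.

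Antisense reads were scarce at other hairpins. Among the 323 detected hairpins with no gene of the tables on the opposite strand, 1.24% had more than 3 antisense counts in both libraries. Those 4 genes were Mir203, Mir708, Mirlet7b and Mir130a, and 307 of the 323 had no antisense count in either library. Mir203 was chosen on this column, so its place among them is a description. Mir203 alone held 88.3% of the 436 antisense counts at hairpins without an opposite-strand gene in replicate 1 (84.9% to 91.2%, exact interval). In replicate 2 it held 87.2% of 655 (84.4% to 89.6%).

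Mir708, a hairpin of chromosome 7, came next, with 9 antisense and 3740 sense counts in replicate 1 and 22 antisense and 3363 sense counts in replicate 2. Mirlet7b, of the let-7 family, had 9 antisense and 222318 sense counts in replicate 1 and 12 antisense and 234174 sense counts in replicate 2. Mir130a had 9 antisense and 15750 sense counts in replicate 1 and 11 antisense and 29948 sense counts in replicate 2. Just outside the limit stood Mir34b, with 3 antisense and 241 sense counts in replicate 1 and 5 antisense and 212 sense counts in replicate 2. The antisense count of Mir203 was 42.8 times the highest of these in replicate 1 and 26.0 times in replicate 2.

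Hairpins more abundant than Mir203 are given here for comparison only. A total of 36 detected hairpins without an opposite-strand gene exceeded Mir203 in sense counts in both libraries, and none of the 36 had over 12 antisense counts in either library. Summed over the 323 hairpins except Mir203, antisense counts were 0.00124% of both strands in replicate 1 and 0.00159% in replicate 2. By antisense share over both libraries Mir203 was second to Mir291a, which had 0 antisense and 22 sense counts in replicate 1 and 3 antisense and 17 sense counts in replicate 2. Mir3081 at 4.17%, Mir1945 at 2.63% and Mir34b at 1.74% followed, and Mir3081 and Mir1945 rest on 1 antisense count each.

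**Figure D4:**
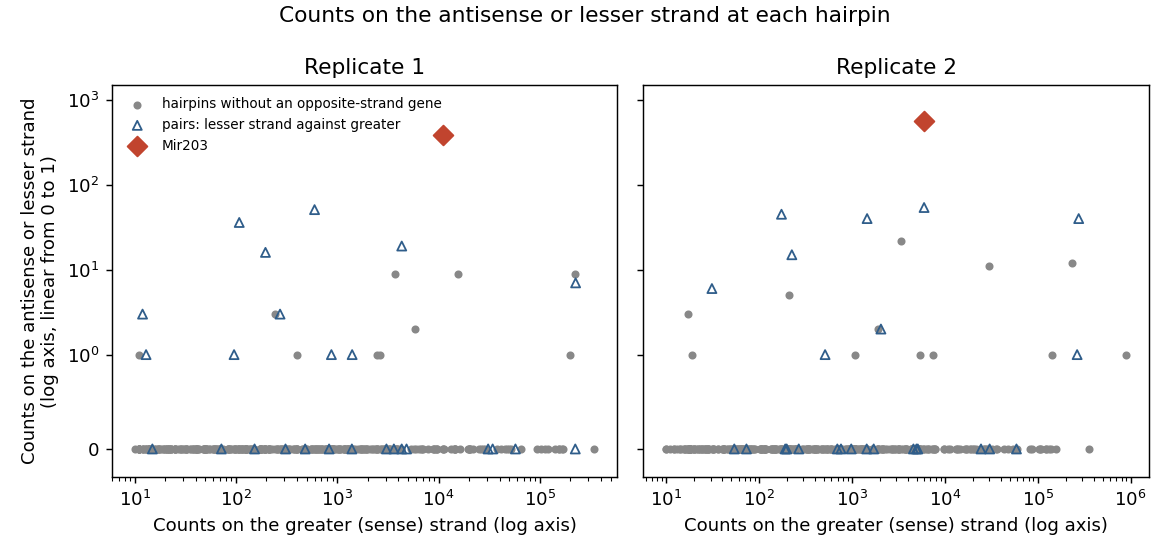
Counts on the antisense or lesser strand against counts on the greater strand, both on log axes (linear from 0 to 1 on the vertical), 1 panel a library. Grey points are detected hairpins without an opposite-strand gene, open triangles annotated opposite-strand pairs with a count on the greater strand, and the diamond Mir203. Mir203, at 385 and 571, stands above every other point in its panel.

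Loci with an annotated hairpin on each strand are the nearest counterpart of Mir203. The tables held 32 such pairs, of which 26 had at least 10 counts over both strands in each library. In 14 of these 26 the lesser strand had no count in either library, and in 19.2% it had more than 3 counts in both. The median share of the lesser strand was 0%. The highest lesser-strand count of any pair was 51 in replicate 1 and 54 in replicate 2. The antisense strand of Mir203 had 7.55 and 10.6 times these counts.

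By share, 4 pairs lay above the 6.05% mean of Mir203. Mir3074-1, opposite Mir24-1, made up 25.0% and 20.5% of its pair in replicates 1 and 2. Mir3107, opposite the erythroid and muscle hairpin Mir486, made up 7.55% and 6.25%. Both shares leave out any read that matched more than 1 place in the genome. How many such reads either strand of a pair lost was not tested, so these shares may be too high or too low. The other pairs of the 4 also rest on few counts. Mir3073b had 3 counts against 12 of Mir3073a in replicate 1 and 6 against 31 in replicate 2. Mir1b had 1 count against 13 of Mir1a-2 in replicate 1 and 10 against 0 in replicate 2. Nearest to Mir203 from below was Mir3065, opposite Mir338, with 51 counts against 598 in replicate 1 and 40 against 1454 in replicate 2. Its share was 7.86% in replicate 1 and 2.68% in replicate 2, so it was higher in replicate 1, whereas that of Mir203 was higher in replicate 2. Mir3544, opposite Mir337, and Mir3071, opposite Mir136, had mean shares of 0.666% and 0.641%.

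The Mir3073a and Mir3073b pair is also the hairpin row nearest to Mir203 on chromosome 12, 21558 bases upstream in the Aspg gene. With at most 37 counts over both strands in a library, it was far below Mir203.

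An opposite-strand hairpin listed by RefSeq and lacking in GENCODE M21 was found at 3 of the 2138 genes without a partner in the tables, Mir203, Mir9-2 and Mir3083. The RefSeq table used holds 1005 hairpins. Mir9-2, opposite Gm51268, had no count on either strand in either library. Mir3083, opposite Gm51291, had 0 antisense and 8 sense counts in replicate 1 and 1 antisense and 0 sense counts in replicate 2. Of these 3 loci, Mir203 was the sole one called detected.

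Shared stretches of the Mir203 sequence were shorter than its arms. The longest stretch that the hairpin shares with its own reverse complement was 10 bases, against arms of 20 to 22 bases. Among the 277 detected hairpins without an opposite-strand gene that had a RefSeq sequence, the median was 8 bases and the maximum 15. Of these, 45 had a stretch at least as long as that of Mir203. The longest stretch shared on either strand with any of the other 2201 hairpins was 11 bases. Reads mapped to several places, which were 31.6% of input reads in replicate 1 and 27.0% in replicate 2, were not counted per gene. Reads and alignments were not examined here, and how reads at this locus were placed on a strand was not tested.

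Both strands of the hairpin were predicted to fold. RNAfold gave a minimum free energy of -32.4 kcal/mol for the antisense strand of the 76-base interval and -35.1 kcal/mol for the sense strand, with 58 bases paired on the antisense and 62 on the sense strand. A lower energy is a more stable fold. Among the 277 of 323 detected hairpins without an opposite-strand gene that had a RefSeq sequence, the median energy was -29.1 kcal/mol antisense and -36.6 kcal/mol sense. The antisense strand of 105 of these (37.9%) was predicted to be more stable than that of Mir203. Whether the predicted fold goes with antisense counts was not tested. Per base the antisense strand of Mir203 had -0.43 kcal/mol, and 19.1% of the hairpins were lower. The energies are computed from sequence and are not measurements of these libraries.

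**Figure D5:**
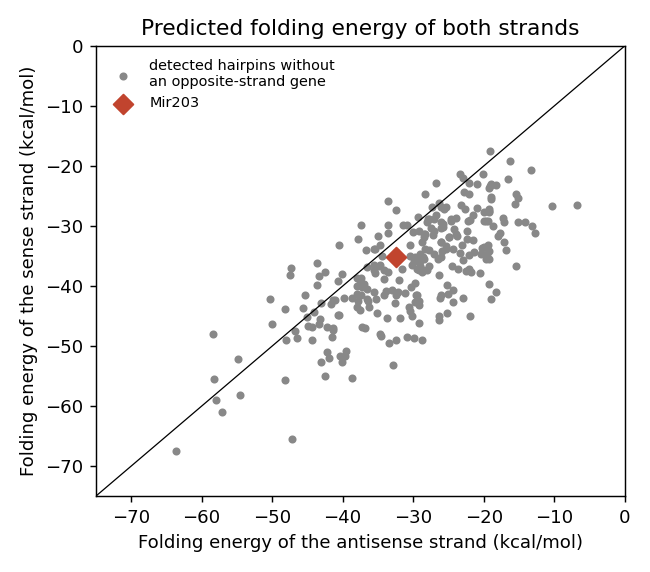
Predicted minimum free energy of the antisense strand (horizontal) and the sense strand (vertical) in kcal/mol, 1 point for each of the 277 detected hairpins without an opposite-strand gene that had a sequence. The line marks equal energies and the diamond Mir203, at -32.4 antisense and -35.1 sense, inside the cloud.

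Other microRNAs of epithelia were low. Each was higher in replicate 2, unlike the sense strand of Mir203, though less clearly so for Mir141. The list held the miR-200 family and Mir205, which is known from stratified epithelium, as is miR-203. Mir200c led with 116 counts in replicate 1 (32.3 CPM) against 215 in replicate 2 (47.3 CPM). Mir200b had 17 counts in replicate 1 and 190 in replicate 2, and Mir429 had 13 and 177. Mir200a had 4 and 45 counts, and Mir205 had 1 and 22. Mir141 had 14 and 21 counts, a replicate 1 over replicate 2 ratio of 0.844. Its exact interval, 0.397 to 1.74, includes equal levels. The 6 hairpins summed to 46.0 CPM in replicate 1 and 148 CPM in replicate 2, below the sense level of Mir203 in each library. None of the 6 had an antisense count in either library.

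Markers of liver and leukocytes also differed between the libraries, as did Mir206 among the striated muscle hairpins. Liver hairpins (Mir122, Mir192, Mir194-2) held 0.0949% of sense counts in replicate 1 and 19.9% in replicate 2. The 6 striated muscle hairpins held 0.0993% in replicate 1, nearly all of it Mir206 with 3540 counts, and 6.61e-05% in replicate 2. Mir206 had 3 counts in replicate 2. Mir1a-1 had 7 counts, Mir1a-2 had 13 and Mir133a-1 had 3 in replicate 1, and each had 0 in replicate 2. Mir133a-2 and Mir133b were at 0 in both libraries, and none of the 6 was called detected. Leukocyte hairpins (Mir142, Mir150, Mir223) held 0.196% in replicate 1 and 0.0837% in replicate 2, and each was higher in replicate 1. The median ratio of replicate 1 over replicate 2 among the 352 detected genes was 1.03. With Mir122 out of the totals, the other liver hairpins held 0.00572% in replicate 1 and 0.169% in replicate 2, and leukocyte hairpins 0.196% and 0.104%. For red cell and endocrine hairpins, which library was higher depended on the total. Red cell hairpins (Mir451a, Mir144) held 0.149% in replicate 1 and 0.125% in replicate 2, and 0.149% and 0.155% without Mir122. The endocrine hairpins Mir375, Mir7-1 and Mir7b, known from neuroendocrine cells such as those of the adrenal medulla, held 3.94% and 3.33%, and 3.95% and 4.16% without Mir122. The list left out Mir7-2, also detected, which had 174 sense counts in replicate 1 and 325 in replicate 2. The part of any of these cell types in the Mir203 values was not tested.

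The genes with sense levels most like Mir203 were Mir140, Mir34c, Mir145a and Mir674, by Euclidean distance of log2 CPM over the 2 libraries. Their distances ran from 0.31 for Mir140 to 0.46 for Mir674. Mir140 stood at 3710 CPM in replicate 1 against 1181 CPM in replicate 2, and Mir34c had 2505 and 1203 CPM. Mir145a stood at 3953 CPM in replicate 1 against 1162 CPM in replicate 2, and Mir674 had 4016 and 1095 CPM. All 4 had 0 antisense counts in both libraries.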

How the data were processed

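MicroRNA sequencing of adrenal gland gave 1 table a library. The tables hold raw counts of reads per microRNA gene, which the authors counted on the mm10 build with the GENCODE M21 annotation, per the notes deposited beside the tables. The aligner used is not given in the sources used here, nor its settings. The 3 count columns hold reads on either strand, the sense strand and the antisense strand, as their values show. The 4 summary lines of each table name no gene and stayed out of totals. They cover the rest of 8666085 and 10284575 input reads, of which 41.4% and 44.2% were sense counts of a gene.

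Levels are counts per 1000000 sense counts. Shares and ratios carry exact intervals at 95%. They were tried on simulated counts with counting error alone, so their coverage under repeated molecules or spread between animals was not tested. No test between groups was possible with 1 group. Opposite-strand genes overlap by at least 1 base. Mir203 and the lists were chosen with earlier results of these data known. Named genes were Mir203, the epithelial list, the 5 hairpins highest in antisense counts and in antisense share, the 4 pairs nearest in share, the 4 genes nearest in level, and marker, neighbouring and same-seed hairpins. Genes at the top of the pair shares and those with a partner in RefSeq alone were named after their values were seen. Of 2202 symbols, 1032 matched a RefSeq symbol, and 968 genes had a sequence for the folds. Tools were Python 3.11.15, pandas 2.3.3, scipy 1.17.1, R 4.3.3, edgeR 4.0.16 (TMM), DESeq2 1.42.0 (size factors), and RNAfold 2.7.2. Alternatives were other totals, minimums and floors, and each library left out.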

Additional observations from a re-analysis of the deposited data

How the results depend on the processing

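Mir203 kept its directions between the libraries under every total tried, sense higher and antisense lower in replicate 1. The antisense totals were chosen after seeing the data. The sense ratio of 2.35 was 1.89 without Mir122 in the totals, 2.20 over all input reads, 2.25 with TMM factors and 2.26 in the either-strand column, and the antisense ratio of 0.853 was 0.685 without Mir122. Over all input reads the mean level was 929 sense and 49.97 antisense counts per 1000000 reads, a larger denominator by construction, and without Mir122 the mean antisense level was 132 CPM. Leaving out a library gave sense levels of 1313 to 3085 CPM, antisense levels of 107 to 126 CPM, antisense shares of 3.36% to 8.74%, and 4 to 5 hairpins over the antisense limit. Requiring over 10 antisense counts in both libraries left 1 hairpin, Mir203. Detected genes over 2-fold apart numbered 62, and 161 at a minimum of 1 count or 40 at 50, since more or fewer genes enter. With at least 50 counts a pair, 2 pairs in place of 4 had a share above that of Mir203. Without Mir122, in a comparison added later, the replicate 1 over replicate 2 ratio was 0.9496 in place of 1.18 for endocrine and 0.957 in place of 1.19 for red cell hairpins, and kept its direction for the other 4 lists. Of all 43 alternative values, 26 stayed within the spread given by the libraries or by counting, or within 1.5 times the count. Some of the 26 could not do otherwise. With 2 libraries, a level or share from 1 of them always lies within their SD of the mean. The antisense share over the either-strand count is the same by construction, since that count is the sum of the strands. No paired analysis was possible because there is 1 group. With 2 libraries, no spread beyond these animals can be estimated.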
